A study of Danio rerio with 2 samples.

Results

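The krt91-high cells, labelled as basal-like epithelial cells, were cells of the larval zebrafish caudal fin fold that carried much mRNA of krt91, a type I keratin gene, and little mRNA of the superficial epidermis. A cell was taken as krt91-high when krt91 made up at least 0.2% of its UMIs (unique molecular identifiers, each standing for 1 captured mRNA molecule), when 6 superficial genes together (cldne, evpla, agr1, anxa1c, scel, oclnb) made up less than 0.2%, and when fewer than 2 of 5 genes of the apical epithelial cap (fgf8a, fgf24, dkk1b, hapln3, apoc1) had a UMI. By this rule 119 of 1640 cells were krt91-high, which was 7.26% of the cells (95% Clopper-Pearson interval 6.05 to 8.62%). The rule read expression values of the same cells, so the levels of these genes in the selected cells describe the choice and test nothing.

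The study compared caudal fin folds at 24 h after amputation with intact fin folds, to describe the cells that take part in regeneration. Fin folds were amputated in larvae of 3 days post fertilization under Tricaine anaesthesia, about 150 fin folds were taken and dissociated (per condition or in all is not stated), and 1 library of 3′ mRNA ends was made from cut and 1 from uncut fins. The study kept AB wild type fish and several transgenic reporter lines, and the sources used here do not say which gave these fins. Each library pooled the fins of many larvae, so that differences between larvae cannot be seen. With 1 library per condition no difference between cut and uncut cells could be tested against replicates, and the 95% intervals given below cover counting error only.

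In the cut library 42 of 762 cells were krt91-high (5.51%, 4.0 to 7.38%), and in the uncut library 77 of 878 (8.77%, 6.98 to 10.8%). The other cells were divided with the same genes into superficial cells (440 cut, 331 uncut), cells with at least 2 of the 5 cap genes (the cap set, 21 cut and 62 uncut) and remaining cells (259 cut, 408 uncut). No barcode was shared by the libraries. The krt91-high cells were shallower in the cut library: their median was 2366 UMIs (1551 to 40828) in cut against 9428 (2566 to 42241) in uncut, while all other cells had medians of 7421 and 10508. The libraries also differed in their shallowest cells, since all other cells began at 1519 UMIs in cut and 2557 in uncut. The median cut krt91-high cell thus lay below every uncut cell. The part of this floor in the shares and depths of the class was not tested. Of the cut krt91-high cells 24 had fewer than 3000 UMIs, against 11 in uncut. Among cells with at least 3000 UMIs the share of krt91-high cells was 3.13% in cut and 8.15% in uncut.

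Within the krt91-high cells krt91 took from 0.255 to 6.07% of the UMIs in cut, with a median of 1.16%, and from 0.207 to 6.55% in uncut, with a median of 1.63%. The lowest selected cell stood at 0.207% and the highest cell left out on krt91 alone at 0.199%. Of the selected cells 17 lay under 0.4%, and 27 cells that met the other limits lay between 0.1% and the limit, so the low end of the class was a cut through a continuous range. Most of the 667 cells that failed only on krt91 were far from it, since 453 of them had no krt91 UMI. The superficial limit fell in a gap: the highest selected cell had 0.116% and the lowest cell left out on this alone had 0.313%.

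**Figure D1:**
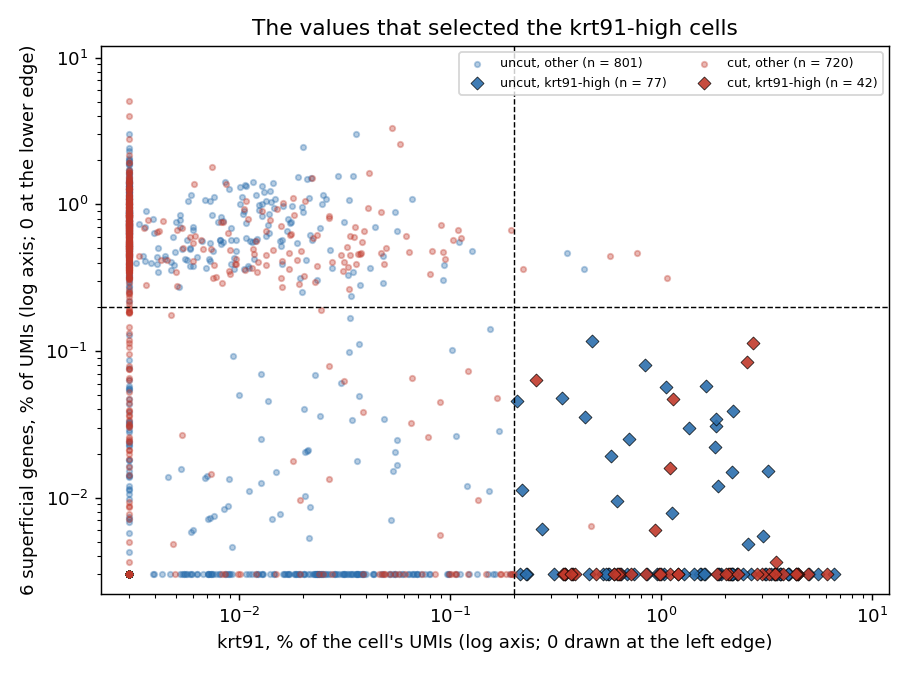
The selecting values of every cell: krt91 as % of the cell's UMIs (x, log axis) against the sum of 6 superficial genes (y, log axis), with cells at 0 drawn at the edge. Diamonds mark the 42 cut and 77 uncut krt91-high cells, circles mark other cells, and the dashed lines are the 0.2% limits, of which the one on the superficial sum falls in a sparse region and the one on krt91 does not.

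The epidermis of a zebrafish larva has an outer layer of superficial cells and an inner layer of basal keratinocytes. Basal keratinocytes rest on the basement membrane through hemidesmosomes, in which integrin alpha 6 beta 4 and collagen XVII bind laminin, and their identity depends on the transcription factor p63. In the fin fold the basal layer also makes collagens and actinodins, which build the actinotrichia, the stiff fibrils of the larval fin. After amputation, epidermal cells close the wound and form a thick epithelium over the stump, whose basal layer signals to the mesenchyme below.

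The label of basal-like cells was set beside a list of 12 basal genes, chosen with earlier results of these data known. Of the 12, 10 were listed in the files. All 10 were at least 2-fold higher in the krt91-high cells than in all other cells, with a median log2 ratio of 3.37. In both libraries by themselves 9 of the 10 were. Of all 6916 genes compared, 440 (6.36%) were 2-fold higher, 1661 (24.0%) were 2-fold lower, and the median log2 ratio was -0.35. A gene was compared when it had at least 100 UMIs over the cells compared. Of the 10 genes, krt91 had set the choice and lgals1l1, zgc:136930 and tp63 had been named with the class.

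The epidermal master regulator tp63 had 444 (376 to 521) CPM in cut and 387 (348 to 429) in uncut krt91-high cells, where CPM is the gene's UMIs per 1000000 UMIs summed over the cells of a class in a library. Its summed level was 478 in cut and 551 in uncut in the cap set, 4.33 in cut and 12.9 in uncut in superficial cells and 44.9 in cut and 70.7 in uncut in remaining cells. Thus tp63 set the krt91-high cells and the cap set apart from the other cells and did not separate these classes from each other. A tp63 UMI was found in 27 of 42 cut and 58 of 77 uncut krt91-high cells. After each cell was thinned to 2000 UMIs, 46.7% of the 30 cut cells deep enough and 45.5% of the 77 uncut cells had one. In superficial cells thinned in the same way the shares were 0.943% in cut and 2.11% in uncut. The part of free RNA in these shares was not tested.

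Both genes named with krt91 were found in part of the cells only. The galectin gene lgals1l1 had 1543 (1414 to 1681) CPM in cut and 782 (726 to 842) in uncut, and zgc:136930, which has no assigned function in the sources used here, had 670.2 (586 to 763) in cut and 2093 (2001 to 2189) in uncut. A cell held UMIs of both genes in 20 of 42 cut and 34 of 77 uncut krt91-high cells, while 11 cut and 21 uncut cells had neither. Their log2 ratios to the other cells were 5.89 and 8.30. Outside the class lgals1l1 reached 120.4 CPM in cut remaining cells and 91.8 in the cut cap set, and zgc:136930 stayed under 50 in every other class. Of the 169 lgals1l1 UMIs of the cut remaining cells, 92 came from 1 cell.

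Summed over the class, markers of most other cell types were at or near 0. The 10 listed myeloid genes summed to 2 UMIs in cut and 16 in uncut krt91-high cells, with spi1a, spi1b, card9, coro1a and cybb at 0. The 12 erythroid genes summed to 6 and 21 UMIs, and the 6 endothelial genes to 0 and 2. The neural crest and pigment genes sox10, foxd3, mitfa and gch2 had no UMI, although egr2b, mbpb and pmela of the same list summed to 51 and 124 UMIs, and neither had the neuronal genes elavl3, elavl4, snap25a and stmn2a. The lists of neuromast, muscle and ionocyte genes gave 2 to 29, 5 to 11 and 5 to 32 UMIs over the cells of a library. Of 14 superficial genes 13 were 2-fold lower than in the other cells, and of 11 cap genes compared 8 were 2-fold lower, but the genes that set the choice were low by that choice. Without those genes, 7 of 8 superficial and 4 of 7 cap genes were 2-fold lower, beside 24.0% of all 6916 genes compared. The genes of the superficial list still made up 1.66% in cut and 1.52% in uncut krt91-high cells, against 11.4% and 12% in superficial cells. Most of this was cyt1, a type I keratin, at 10846 CPM in cut and 10191 in uncut, beside 49706 in cut and 45856 in uncut in superficial cells, and its part in the results was not tested.

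The 15 leading genes were taken by log2 ratio to the other cells among those with a UMI in at least 25% of the cells of the class in each library. Other than zgc:136930, krt91 and lgals1l1 they were col17a1a, col11a1a, col5a3b, gstm.3, igfbp2a, cxcl18a.1, fn1b, rab42b, dennd2da, scinla, ecrg4b and itgb4. Of all genes that passed 2-fold in the pooled comparison, 293 of the higher and 842 of the lower did so in both libraries.

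**Figure D2:**
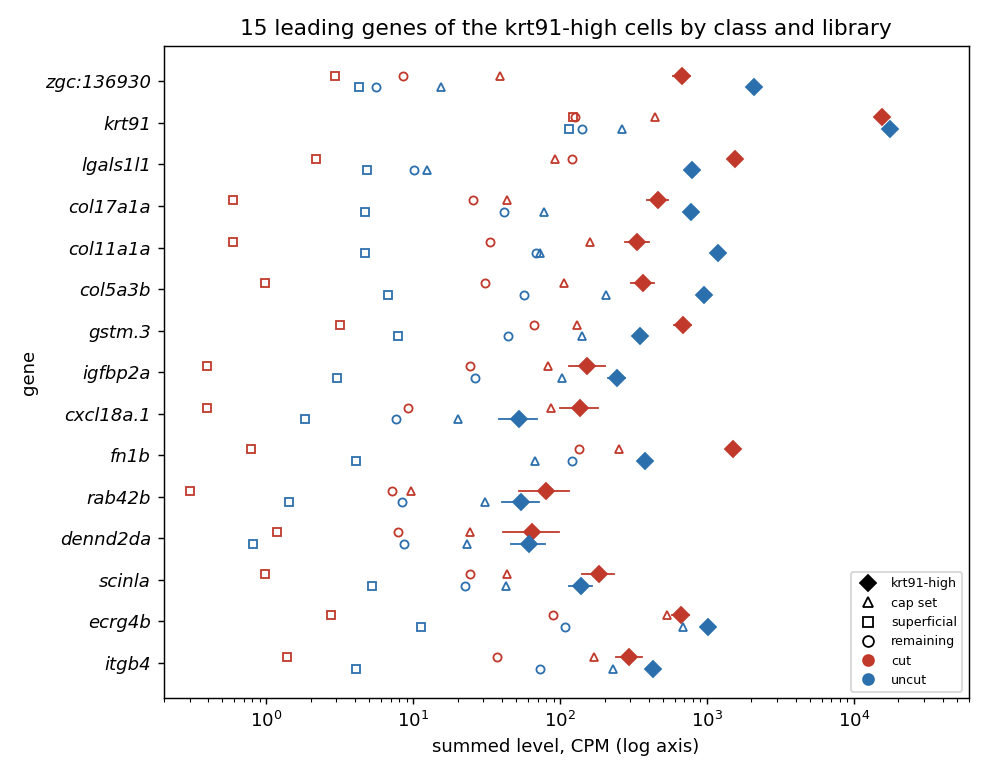
Summed level in CPM (x, log axis) of the 15 leading genes in 4 classes of cells, cut in red and uncut in blue, with 95% counting intervals on the diamonds of the krt91-high cells. For all 15 genes the diamond lies to the right of every open symbol of the same library, and for ecrg4b the cap set comes close to it.

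Genes of the hemidesmosome, which the rule had not used, were higher in the krt91-high cells than in the other cells but were found in part of them only. The collagen XVII gene col17a1a had 461 CPM in cut and 778 in uncut in krt91-high cells, 43.5 in cut and 76.9 in uncut in the cap set and 0.590 in cut and 4.65 in uncut in superficial cells. Its log2 ratio to the other cells was 5.30 (5.11 to 5.50), and it had a UMI in 16 of 42 cut and 53 of 77 uncut krt91-high cells. The integrin genes were higher in the krt91-high cells as well: itgb4 (integrin beta 4) had 294 CPM in cut and 430.4 in uncut, with a log2 ratio of 3.54 (3.36 to 3.72), and itga6b (integrin alpha 6) had 126 in cut and 251 in uncut, with 3.20 (2.97 to 3.43). In the cap set itgb4 was closer, with 169 CPM in cut and 227.6 in uncut. Its UMIs were found in 11 of 21 cut and 41 of 62 uncut cap set cells, beside 14 of 42 and 47 of 77 krt91-high cells. Cells that carried tp63 often carried col17a1a, with both in 15 of 42 cut and 49 of 77 uncut cells and col17a1a without tp63 in 1 and 4.

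Of 15 genes of basement membrane adhesion that could be compared, 9 were 2-fold higher (bcam, col17a1a, itgb4, itga6b, lama5, lamb4, col4a5, frem2b and itga3b) and 2 lower (cd151 and frem1a). Among all 6916 genes compared, 6.36% were higher and 24.0% lower. The laminin beta 4 gene lamb4 had 13 UMIs in cut and 107 in uncut and no UMI in the cap set, with a log2 ratio to all other cells of 6.20 (5.52 to 6.95). The laminin alpha 5 gene lama5, of the general epidermal basement membrane, and bcam, a laminin receptor, had ratios of 1.18 and 1.18. The list as a whole made up 0.221% in cut and 0.327% in uncut krt91-high cells, 1.01% in cut and 0.922% in uncut cells of the cap set, and 0.00608% in cut and 0.0178% in uncut superficial cells. The cap set thus carried more mRNA of this list than the krt91-high cells did.

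Some collagen and actinodin genes were higher in the krt91-high cells than in the other cells. They were no fixed list, and those outside the leading genes were named after their values were seen. Among the leading genes, col11a1a had 335 (276 to 403) CPM in cut and 1176 (1107 to 1248) in uncut and col5a3b 364 (303 to 435) in cut and 949.9 (888 to 1015) in uncut, with log2 ratios of 5.19 and 4.81. The collagen I genes col1a2 and col1a1b had 1622 in cut and 4194 in uncut and 1431 in cut and 4117 in uncut, with ratios of 2.46 and 2.81. The actinodin gene and2, which encodes a structural protein of the actinotrichia, had 9914 in cut and 16080.2 in uncut, with a ratio of 1.34. Others were not 2-fold apart: the log2 ratio to the other cells was -0.34 for col1a1a, -0.15 for col5a2a, 0.53 for and1 and 0.47 for and3. Of 11 genes on the mesenchyme list, col1a2 was 2-fold higher and 8 were 2-fold lower, among them prrx1a, prrx1b, twist1b, twist3, pdgfra and pdgfrl, the last at 0 UMIs. Among all 6916 genes compared, 6.36% were higher and 24.0% lower.

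Transcripts of actin dynamics were abundant. The 10 genes with the most UMIs were tmsb4x, zgc:158463, rbp4, pfn1, krt91, krt4, actb2, and2, cyt1 and tmsb1, of which rbp4, a retinol carrier gene, had 15948 CPM in cut and 22906 in uncut krt91-high cells and a log2 ratio to the other cells of 3.15. The thymosin gene tmsb4x, whose product holds actin monomers, had 41476 CPM in cut and 47034 in uncut, and pfn1 (profilin, which feeds monomers to growing filaments) had 15049 in cut and 18068 in uncut. Their log2 ratios to the other cells were 2.59 and 2.89, those of actb2 (cytoplasmic actin) and tmsb1 1.51 and 1.67. Of 40 actin and motility genes 19 were 2-fold higher, among them cotl1, myh9a, rac2, wdr1, zyx and the Arp2/3 subunits arpc2, arpc4 and arpc5b, and 5 were lower (cfl1, ezrb, msna, myl9b and evla). Among all 6916 genes compared, 6.36% were higher and 24.0% lower. The list made up 11.3% in cut and 11.7% in uncut krt91-high cells, 11.2% in cut and 14.6% in uncut cap set cells, 1.70% in cut and 2.04% in uncut superficial cells and 3.40% in cut and 2.83% in uncut remaining cells. This share was therefore common to the krt91-high cells and the cap set.

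Keratin transcripts took a smaller share in the krt91-high cells than in superficial cells, and their composition differed. The 21 keratin genes made up 6.55% in cut and 7.37% in uncut krt91-high cells, against 16.0% in both cut and uncut superficial cells. Of 17 compared, 4 were 2-fold higher (krt91, krt5, krtt1c19e and krt18a.1) and 6 lower (krt4, cyt1, cyt1l, krt97, krt17 and krt99). Among all 6916 genes compared, 6.36% were higher and 24.0% lower. The type II keratin gene krt5 had 8054 CPM in cut and 10197 in uncut and krtt1c19e, a keratin of basal cells, 4932 in cut and 10581 in uncut. In superficial cells krtt1c19e had 4098 CPM in cut and 2746 in uncut, so that the classes lay close in cut. Of the krt18a.1 UMIs 32.8% came from 1 cell.

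**Figure D3:**
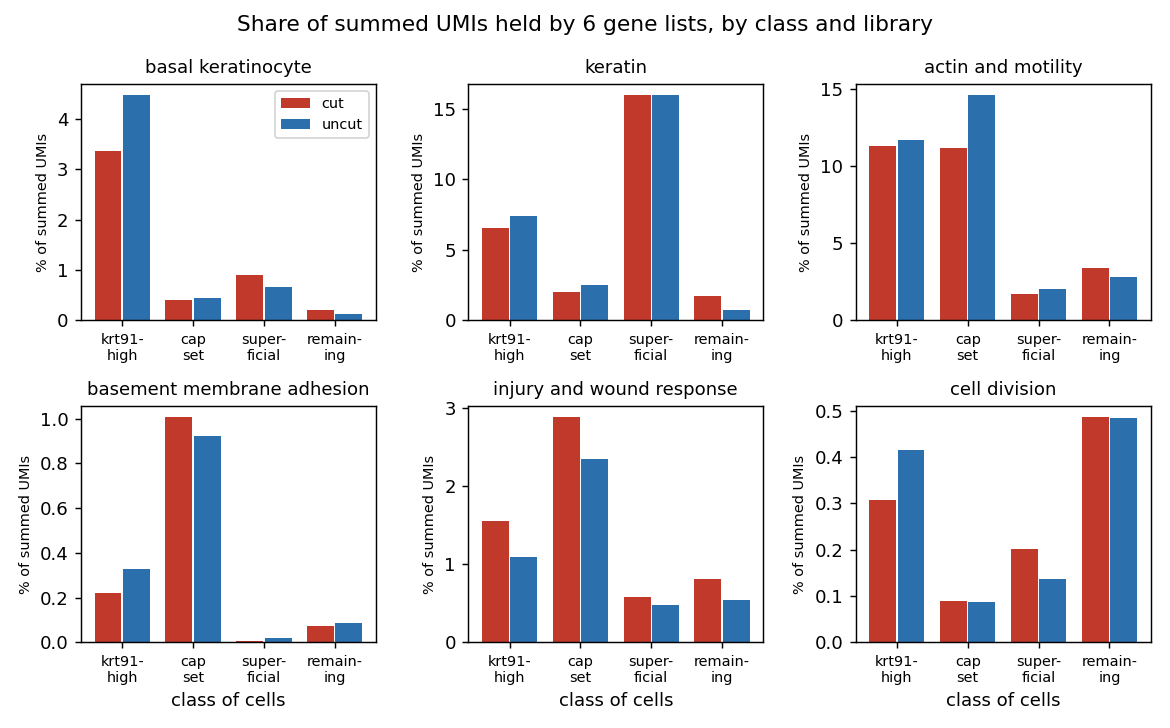
Share of summed UMIs held by 6 gene lists (y, %, bars from 0) in the 4 classes of cells, cut in red and uncut in blue, with 1 library per bar. The krt91-high cells are highest for the basal list, stand beside the cap set for actin and motility, and lie below the cap set for basement membrane adhesion and injury response, and below superficial cells for keratin.

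Among 19 junction genes compared, the claudin genes cldni, cldn1 and cldna were 2-fold higher, and 5 were lower (the plakin genes ppl and evpla, the claudin gene cldnf and the connexin genes cx43 and cx30.3), of which evpla had set the choice. One cell held 29.9% of the cldna UMIs. The tight junction gene cldn1 had 1699 CPM in cut and 1628 in uncut and a log2 ratio of 2.99 (2.92 to 3.07). Of 29 epidermal transcription factors 3 were 2-fold higher: tp63, id3 (an inhibitor of differentiation, log2 ratio 1.34) and grhl2b (a grainyhead factor, 2.02 from 29 UMIs). The 7 that were lower were cebpa, id2a, ovol1a, znf750, msx3, grhl1 and dlx4b. Of all 6916 genes compared 6.36% were 2-fold higher and 24.0% lower, and the 7 of 29 lie near the latter share.

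Of 36 genes of injury and wound response 12 were 2-fold higher in the krt91-high cells, both libraries summed, and 10 of these 12 were so in each library. Over all 6916 genes compared, 6.36% were 2-fold higher and 24.0% lower. They included krt18a.1, the AP-1 genes junba (log2 ratio 1.37), junbb (1.03), fosl2, fosl1a and atf3, the cytokine signalling inhibitor socs3a, fn1b (a fibronectin), hbegfa, mmp30 and tgm2b. Single cells held 32.8% of the krt18a.1 UMIs and 27.5% of the atf3 UMIs of the class. Of the list 7 were lower, among them il1b, mmp9 and mmp13a, which is near the share over all genes. The inflammatory cytokine genes tnfa, tnfb and il6 had no UMI. The list made up 1.55% in cut and 1.09% in uncut krt91-high cells and 2.88% in cut and 2.34% in uncut cap set cells.

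In the ErbB pathway, which relays signals of epidermal growth factor and neuregulin, hbegfa (a ligand of the EGF receptor) had 888 CPM in cut and 509 in uncut in krt91-high cells and 1971 in cut and 1044 in uncut in the cap set, with a log2 ratio to all other cells of 1.46 (1.34 to 1.57). The receptor gene erbb2 had 11 UMIs with a ratio of -1.88 (-2.89 to -1.03), and erbb3b had 6 UMIs in all. The neuregulin gene nrg1 had 17 UMIs with a ratio of -1.99, and nrg2a had 26 with 1.57. For each of these receptor and neuregulin genes the UMIs were too few for a firm level. Of 12 chemokine and receptor genes compared, cxl34b.11, the receptor gene cxcr4a (ratio 1.22) and the ligand gene cxcl18a.1 (ratio 3.83) were 2-fold higher. Of these 3 genes 2 were so in each library. Another 5 were 2-fold lower (ccl34b.1, ccl34a.4, cxcl19, cxcr4b and cxcr3.2), and the list's median was -0.04. Over all 6916 genes compared, 6.36% were higher and 24.0% lower. In the class 29 of the 48 genes on the list had no UMI. Of 18 genes of the S100 and annexin families, which encode calcium-binding proteins, 3 were 2-fold higher (anxa4, anxa5b and anxa3b) and 8 lower, among them anxa1c, which had set the choice, and of 87 ribosomal protein genes none was higher and 1 was lower.

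The krt91-high cells were not uniform, and depth ran with the main difference among them. Clustering of the 119 cells on depth-scaled log counts gave a group of 73 cells (19 cut, 54 uncut, median 14333 UMIs) and a group of 46 cells (23 cut, 23 uncut, median 2711 UMIs), which are called groups 1 and 2 and were given no cell type name. Group 2 was the shallower in both libraries, with medians of 2010 UMIs in cut and 3140 in uncut, against 13013 and 14484 in group 1. It had the higher krt91 share, with a median of 1.92% against 1.35%. Within group 1 some cut cells had near-equal values in pairs. Cells of 17924 and 7686 UMIs had krt91 shares of 0.614% and 0.625%, and fn1b levels of 4742 and 4814 CPM. Cells of 13450 and 21685 UMIs had krt91 shares of 0.974% and 0.982%, and col1a2 levels of 2900 and 2859 CPM. Whether such pairs are separate cells was not tested, and the counting intervals take no account of it. Clusters are defined by their genes, so the levels that follow are a description with no test, and neither the part of depth in the split nor a lower RNA quality of group 2 was tested.

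Summed over its cells, group 1 carried the epithelial adhesion and matrix genes. In CPM, col17a1a had 763 in group 1 and 83.8 in group 2, the E-cadherin gene cdh1 439 in group 1 and 15.2 in group 2, epcam (an epithelial adhesion molecule) 1499 in group 1 and 114 in group 2 and rbp4 (a retinol carrier) 22988 in group 1 and 4180.2 in group 2. In group 2, zgc:136930 had 3343 against 1519 in group 1, and lgals1l1 1919 against 879.5. A tp63 UMI was found in 16 of 19 cut and 46 of 54 uncut cells of group 1, and in 11 of 23 and 12 of 23 cells of the shallower group 2. Group 2 thus held krt91, lgals1l1, zgc:136930 and tp63 with little mRNA of col17a1a, cdh1 or epcam, and for these 46 cells the epithelial part of the label was not borne out by cdh1 and epcam. Group 1 was not uniform either. Cut cells of 6280 and 6382 UMIs and uncut cells of 8311 and 5019 UMIs had none of tp63, lgals1l1, zgc:136930, col17a1a or itgb4. Their actin and motility shares were 1.51, 1.41, 0.926 and 0.996%, against class medians of 12.5% in cut and 11.7% in uncut. For such cells the basal label was not borne out by these genes. The cut cells of 6280 and 6382 UMIs are among the near-equal pairs described above.

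**Figure D4:**
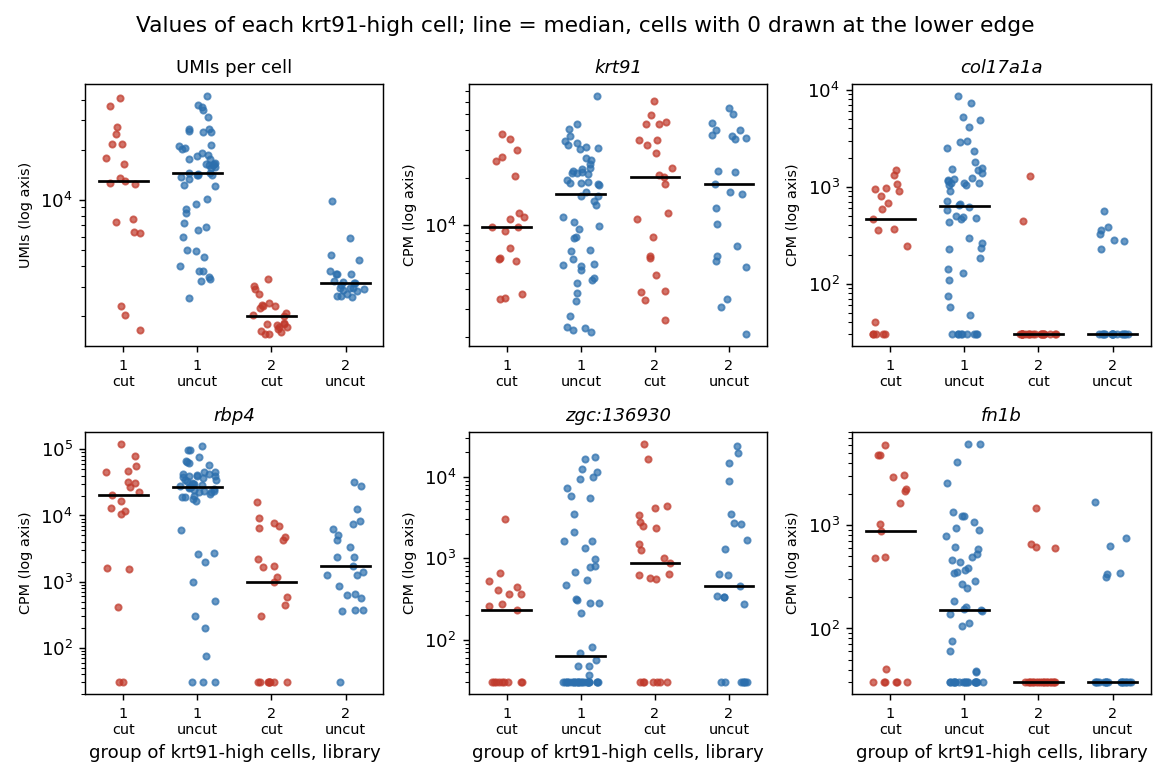
Values of each of the 119 krt91-high cells by group and library (log axes, 1 point per cell, line at the median, cells with 0 at the lower edge): UMIs per cell, and CPM of krt91, col17a1a, rbp4, zgc:136930 and fn1b. Group 2 cells have fewer UMIs and mostly no col17a1a UMI, while their krt91 levels overlap those of group 1.

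At a finer resolution group 1 divided in 2, while group 2 kept its 46 cells. One division of 44 cells (7 cut, 37 uncut) was led by inhbaa, and3, tnfrsf19, vcanb and and2, genes of the activin beta A subunit, the actinodins, a TNF receptor and versican. The other, of 29 cells (12 cut, 17 uncut), was led by the replication and mitosis genes mcm7, lig1, rrm2, aurkb and mki67. The cell division list took 0.732% of its UMIs against 0.0914% in the other krt91-high cells. Single cells held 69.8% of the 53 inhbaa UMIs and 49.1% of the 116 rrm2 UMIs of the class. An inhbaa UMI was found in 27.3% of the 44 cells.

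Of 35 cell division genes 15 were 2-fold higher in krt91-high than in other cells, among them mki67, top2a, cdk1, aurkb and plk1, and none was lower. Among all 6916 genes compared, 6.36% were higher and 24.0% lower. The counts of the list rested on few cells: for 14 of the 15 genes 1 krt91-high cell held over 20% of the UMIs (22.1% for mki67, 33.9% for top2a). Of the 15, 7 were 2-fold higher in both libraries, and top2a was higher in uncut (log2 ratio 2.03) and lower in cut (-0.91). With a krt91 limit of 0.5% for the class, 6 were higher and 4 lower. The share of UMIs on the list was 0.307% in cut and 0.414% in uncut krt91-high cells, and 0.486% in cut and 0.484% in uncut remaining cells. In superficial cells it was 0.201% in cut and 0.136% in uncut, and in the cap set 0.0898% and 0.0875%. The share was thus lower than in the remaining cells and higher than in superficial cells and the cap set. Cells rich in these transcripts were few: 3 of 42 cut and 10 of 77 uncut krt91-high cells spent at least 0.5% of their UMIs on the list, and mki67 had a UMI in 3 and 8 cells. The cut cells above 0.5% include the near-equal pair of 13450 and 21685 UMIs described above. The cells with the most division transcripts had low krt91 shares, with a rank correlation of -0.28 in cut (n = 42) and -0.27 in uncut (n = 77), given as a description over cells of 1 library each.

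Across the 119 cells, thinned to 1500 UMIs, the genes whose levels ran most closely with krt91 were other keratins. Spearman's rho was 0.65 for krt5, 0.61 for krt4 and 0.55 for krtt1c19e, followed by aep1 and si:dkey-33c14.3 with 0.45 each, out of 394 genes with a median of -0.01. At the other end krt18a.1 had -0.33 and eif4a1a, a translation factor, had -0.30. The cells share libraries and depth, and rho was computed on sparse counts.

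A single uncut cell of 16439 UMIs held most cartilage transcripts of the class. It carried all 427 UMIs of matn3a (matrilin), 314 of the 315 UMIs of col2a1a (collagen II) and 208 of the 216 UMIs of cnmd (chondromodulin). Scrublet called 5 uncut and no cut cell a doublet, none of them krt91-high. This cell accounts for 7 of the 46 genes counted below as lower in cut cells.

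In the comparison of cut with uncut krt91-high cells, 948 genes had at least 100 UMIs over both libraries. Of these, 23 (2.43%) were at least 2-fold higher in cut and 46 (4.85%) at least 2-fold lower, with a median log2 ratio of 0.14. In the other cells the same genes had a median of 0.04. The other cells were also past 2-fold in the same direction for 3 of the 23 and 22 of the 46 genes, so that the genes lower in cut krt91-high cells were often lower in the other cells as well. The other cells are a mixture, with superficial cells making up 57.7% of all cut and 37.7% of all uncut cells, and their ratios move with that mixture, so levels within single classes are given for the main genes. One cell held over 20% of the UMIs for 2 of the 23 and 16 of the 46, and these genes are not among the 30 chosen by size below. Leaving out group 2, whose share of the cells differed between the libraries, gave 23 higher and 45 lower, while a krt91 limit of 0.5% gave 45 higher and 34 lower. Group 1 itself differed in make-up, with 7 of its 19 cut and 37 of its 54 uncut cells in the 44-cell division.

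The fibronectin gene fn1b, which encodes a matrix protein laid down in wounds, was higher in cut krt91-high cells and lower in the other cut cells. It had 1493 (1366 to 1629) CPM in cut and 376 (337 to 418) in uncut in krt91-high cells, a log2 ratio of 1.99 (1.79 to 2.19), while in all other cells the ratio was -0.63 (-0.85 to -0.41). In group 1 alone the ratio was 2.11 (1.90 to 2.31). The cap set had the higher level in cut as well, with 251 in cut and 67.7 in uncut, and the remaining cells had 133 in cut and 119.6 in uncut. An fn1b UMI was found in 17 of 42 cut and 42 of 77 uncut krt91-high cells, which differed in depth, and in 50% of 30 and 31.2% of 77 cells after thinning to 2000 UMIs. Taken as a mean over cells in place of a sum, the log2 ratio was 0.73, under 2-fold. Of the 508 cut fn1b UMIs of the class, 125 came from 1 cell. The cut sum also includes the near-equal pair of cells described above, at 4742 and 4814 CPM.

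Further genes were higher in cut cells. The gene igfbp1a, an insulin-like growth factor binding protein, had 511 (438 to 593) CPM in cut and 119.5 (98.3 to 144) in uncut, a log2 ratio of 2.10 beside 1.49 in the other cells, and the AP-1 gene fosl2 had 259 (207 to 319) in cut and 93.5 (74.8 to 115) in uncut, a ratio of 1.47 beside 0.27. Both were higher in cut within the cap set too, where igfbp1a had 657 in cut and 86.1 in uncut CPM and fosl2 372 in cut and 197 in uncut. The cut sums of the krt91-high cells include the near-equal pair of 2292 and 2032 UMIs described above. In this pair igfbp1a had 8726 and 11319 CPM and fosl2 1745 and 1969. The annexin gene anxa2a had ratios of 1.12 in krt91-high and -0.17 in other cells, and 0.92 as a mean over the krt91-high cells. Of 18 injury and wound genes compared, 3 (fn1b, fosl2 and anxa2a) were 2-fold higher in cut and none was lower. Of the 18, 15 lay above 0, and the list's median was 0.40, against 0.13 in the other cells. Over all 948 genes in krt91-high cells, 2.43% were higher and 4.85% lower, and the median of 0.14 was above 0 as well. The transcription factor gene msx2b, of the fin fold epidermis, had 220.4 CPM in cut and 108 in uncut, with ratios of 1.03 (0.58 to 1.48) in krt91-high cells, -0.40 in all other cells and 1.09 in the cap set. As a mean over cells its ratio was 0.31.

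The remaining genes named as higher in cut krt91-high cells were cmpk, mvp, txn, phlda2, arpc5a, atp5mc1, tmem176l.4, bzw1a, s100v2, cox5ab and glulb, with log2 ratios from 1.05 for glulb to 2.13 for cmpk. They include a nucleotide kinase (cmpk), the major vault protein (mvp), thioredoxin (txn, a redox protein) and subunits of ATP synthase (atp5mc1) and cytochrome c oxidase (cox5ab). In the other cells each of them had a ratio above 0, and that of phlda2 was 1.16. As a mean over cells tmem176l.4, cox5ab and glulb had ratios of 0.83, 0.67 and 0.62, under 2-fold. Beside these 2-fold genes, lgals1l1 had a ratio of 0.98 (0.81 to 1.14) in krt91-high cells and 1.98 (1.58 to 2.39) in the others. Both ratios leaned on single cells, which held 201 of the 525 cut UMIs in krt91-high cells and 92 of the 199 in the others. An lgals1l1 UMI was found in 3.89% of the cut and 4.99% of the uncut other cells.

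Genes of extracellular matrix and secreted factors led the lower side. The secreted factor gene angptl7 had 1 UMI in cut and 148 in uncut krt91-high cells, a log2 ratio of -5.77 (-11.09 to -3.27), beside -1.62 in the other cells. col11a1a, col5a3b, col1a1b and col1a2 had log2 ratios of -1.81, -1.38, -1.52 and -1.37, and in the other cells of -1.52, -1.96, -1.61 and -1.39, a shared direction. Within the remaining cells col1a2 had 1522 in cut and 1972 in uncut CPM and col11a1a 33.5 in cut and 68.4 in uncut, but 129 of the 270 uncut col11a1a UMIs there came from 1 cell. In the cap set col1a2 had 82.1 in cut and 361 in uncut, but col11a1a was not lower in cut there, with 159 in cut and 72.3 in uncut. The prostaglandin D2 synthase genes ptgdsb.1 and ptgdsb.2, myoc, abi3bpb, crabp2a (a retinoic acid binding protein), ecrg4a and the linker histone gene h1-10 had ratios below 0 in both, in krt91-high cells from -2.16 to -1.35.

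Fewer genes were lower in the krt91-high cells and not in the others. The laminin gene lamb4 had 13 UMIs in cut and 107 in uncut, a ratio of -1.61 (-2.56 to -0.77), and in the other cells -0.19 (-1.67 to 1.19). The latter interval holds the ratio of the krt91-high cells, so these counts cannot set the classes apart for lamb4. The kinase gene sgk1 had 38.2 CPM in cut and 98.9 in uncut, with ratios of -1.37 (-2.34 to -0.53) in krt91-high and 0.51 (0.32 to 0.69) in other cells, and -0.96 as a mean over the krt91-high cells. The basal keratin gene krtt1c19e had 4932 in cut and 10581 in uncut, with -1.10 (-1.18 to -1.03) in krt91-high and 1.12 (1.09 to 1.15) in other cells. In the cap set by itself krtt1c19e had 77.3 CPM in cut and 111 in uncut, a ratio of -0.52 (-1.40 to 0.28). For zgc:136930 the ratio was -1.64 (-1.85 to -1.44), but it rested on group 1, where it was -2.93 (-3.28 to -2.60), while the levels in group 2 were 3167 in cut and 3445 in uncut. As a mean over cells the ratio of zgc:136930 was -0.49.

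The other defining genes of the class had ratios nearer to 0. The log2 ratio of krt91 was -0.19 (-0.23 to -0.14) and that of tp63 was 0.20 (-0.09 to 0.48), while that of tp63 was -1.42 in the other cells, a value lower than in the cap set and the remaining cells by themselves, whose levels of tp63 are given above. Of the 6 basement membrane adhesion genes with enough UMIs, lamb4 was 2-fold lower in cut, none was higher, and the median was -0.65, against -1.45 in the other cells, with col17a1a at -0.75 (-1.01 to -0.50) and -1.79. Of 33 actin and motility genes only arpc5a passed 2-fold, with 1.57 (1.05 to 2.08), and the mRNA share of the list was 11.3% in cut and 11.7% in uncut cells. Of 13 keratin genes 3 were 2-fold lower in cut (krt15, krtt1c19e and krt96) and none was higher, and of 10 cell division genes top2a was lower. Of 11 S100 and annexin genes s100v2 and anxa2a were higher and s100u lower. Beside these list counts, 2.43% of all 948 genes were 2-fold higher in cut and 4.85% lower. One uncut cell held 72.4% of the krt15 UMIs and 22.5% of those of s100u, and another 33.9% of those of top2a. Of 80 ribosomal protein genes 1 (rps29) was 2-fold lower in cut, and these genes made up 32.7% in cut and 29.3% in uncut krt91-high cells. Shares of UMIs within a library cannot tell a change in 1 gene's mRNA from a change in the total mRNA of the cell.

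**Figure D5:**
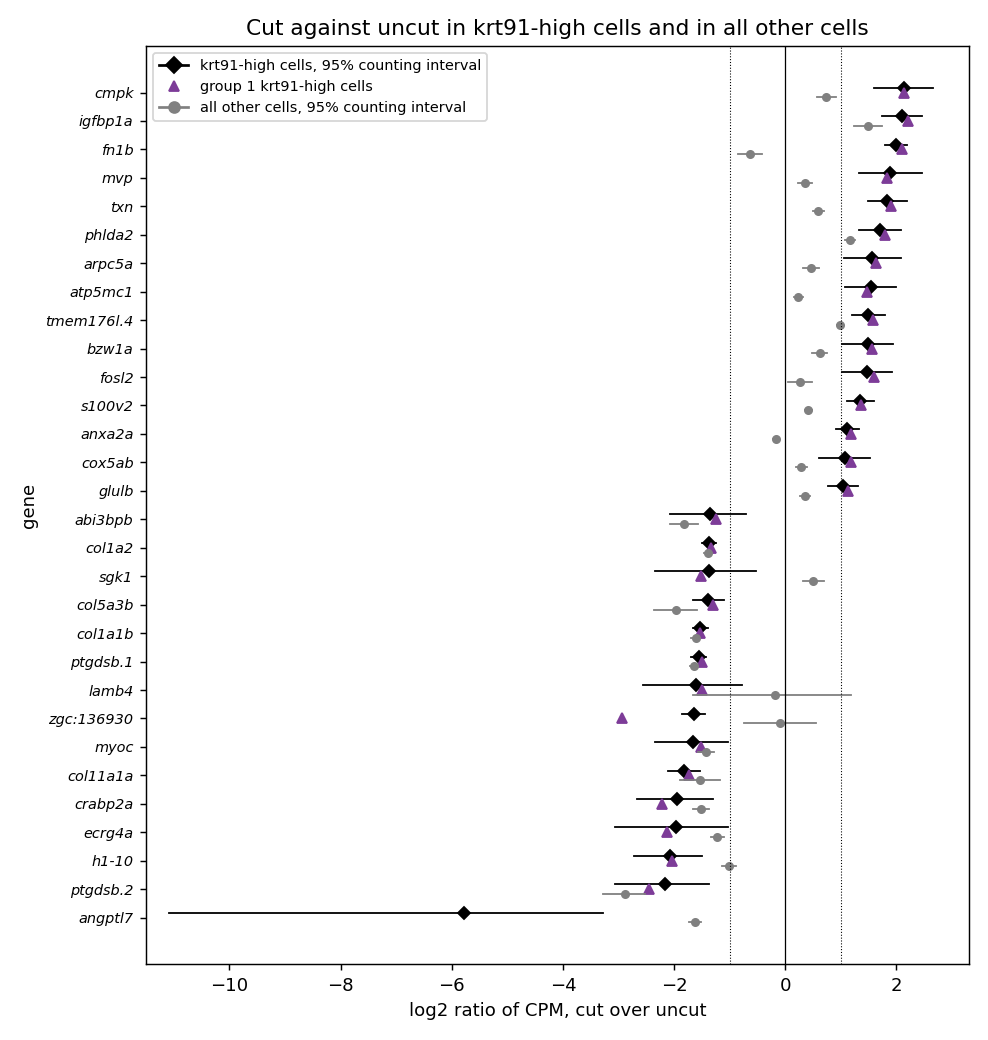
Log2 ratio of CPM, cut over uncut (x), for the 30 genes named as furthest apart, in krt91-high cells (black, 95% counting interval), in group 1 alone (purple, none for angptl7, which had no cut UMI there) and in all other cells (grey, interval). Dotted lines mark 2-fold; the other cells follow the krt91-high cells for the collagens and lie on the other side of 0 for fn1b, anxa2a and sgk1.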

How the data were processed

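Gene expression of single cells was measured with Chromium 3′ v3.1 libraries, 1 cut and 1 uncut. The deposited files hold UMI counts per gene and cell, which the authors made with Cell Ranger (3.1.0 in the submitters' processing notes, which also name FastQC and the danRer11 genome). The matrix in which the authors combined both libraries was used. Its cut cells hold 95.3% of the UMIs of the cut library's own matrix, and its uncut cells 100%. It lists 15411 genes, and no further filter on cells was applied. Depth per library was 7033569 UMIs in cut and 10458222 in uncut.

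UMIs were summed over the cells of a class. A ratio of sums has an exact conditional binomial interval, a sum an exact Poisson interval and a share of cells a Clopper-Pearson interval, all at 95%. No p-value was computed, since each condition has 1 library. A gene was called at 2-fold with at least 100 UMIs over the cells compared. Named genes were the 15 highest by ratio to other cells, the 10 most abundant, the 15 furthest apart in each direction between cut and uncut with no cell over 20% of the UMIs, up to 4 per list, and the 5 most and least correlated with krt91. Genes named outside this rule, among them msx2b, cdh1, epcam, hbegfa, cxcr4a, erbb2, lama5 and the cartilage genes, were chosen after their values were seen. The class and all 24 lists were chosen with earlier results of these data known. Cells were thinned to 2000 UMIs for shares and to 1500 for correlations. The 119 cells were clustered with Leiden (resolution 0.5, 15 neighbours, 10 components). Doublets were scored with Scrublet and kept. Tools were Python 3.11.15, numpy 2.4.6, scipy 1.17.1, scikit-learn 1.9.0, leidenalg 0.10.2 and scanpy 1.11.5. The interval and ratio code was tested on simulated data. No sequence is shown, since no genome or sequence table of the files' build was used here.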

Additional observations from a re-analysis of the deposited data

Results flagged for a closer look

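In all, 7 genes differed at least 2-fold between cut and uncut krt91-high cells while all other cells differed in the opposite direction, each beyond counting error. This difference between the classes was not tested, because each condition has 1 library. The log2 ratios of cut over uncut in krt91-high cells were 1.99 for fn1b, 1.12 for anxa2a, 1.03 for msx2b, -1.11 for atp1b1a (a sodium pump subunit), -1.04 for slc38a5b (an amino acid transporter), -1.10 for krtt1c19e and -1.37 for sgk1. The other cells are a mixture in which superficial cells made up 57.7% of all cut and 37.7% of all uncut cells. Within single classes the direction was not always opposite. For fn1b the cap set had 1.89, remaining cells 0.16 (-0.10 to 0.40) and superficial cells -2.36, the last from 4 cut and 20 uncut UMIs. For msx2b the cap set had 1.09, superficial cells -0.45 and remaining cells -0.23. For slc38a5b every other class lay below 0 (superficial -0.18, cap set -0.95, remaining -0.30), so its opposite sign is seen only in the mixture. For anxa2a superficial cells had -0.63, the cap set -0.75 and remaining cells 0.64. For krtt1c19e superficial and remaining cells lay above 0 (0.58 and 2.01), while the cap set had -0.52 (-1.40 to 0.28). For atp1b1a superficial cells had 0.31 and remaining cells 0.07, while the cap set had -0.75 (-1.69 to 0.09).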

How the results depend on the processing

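Of 18 alternative settings, those that recomputed gene ratios reversed no direction. Most of the genes had been taken as the furthest apart in these same cells, so that a reversal was unlikely from the start. Of 629 recomputed values of the 46 leading and cut against uncut gene ratios, 572 stayed within the counting interval and 57 did not. The share of krt91-high cells in cut was 3.13% with cells of at least 3000 UMIs and 3.27% with at least 5000 (chosen after seeing the data), against 8.15% and 7.18% in uncut, so that the gap between the libraries grew. Genes 2-fold higher in cut krt91-high cells numbered 45 with a krt91 limit of 0.5%, in place of 23. Those 2-fold lower became fewer than those higher, as given above, and the cause was not tested. With at least 50 UMIs per gene, where more genes are compared, 57 were higher and 110 lower in cut; with at least 200, where fewer are, 10 and 22, and 291 genes were 2-fold higher than in other cells. As a mean over cells, 8 of the 31 cut against uncut ratios fell under 2-fold (fn1b, tmem176l.4, anxa2a, cox5ab, glulb, zgc:136930, sgk1 and msx2b). Leaving out group 2, also chosen after seeing the data, kept all 31 past 2-fold. Thinning to 4000 UMIs left 16 cut cells, and 1 UMI in a cell of 2000 UMIs stands for 500 CPM, which limits what single cells show. No paired analysis was possible because each condition has 1 library.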
